A study of Mus musculus with 9 samples.

Results

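The genes described here are 10 genes of the contractile actin cytoskeleton that are widely used as readouts of serum response factor (SRF): the actins Acta2 and Actg2, the myosin light chain Myl9, the calponins Cnn1 and Cnn2, the caldesmon Cald1, the transgelins Tagln and Tagln2, and the tropomyosins Tpm1 and Tpm2. They were taken by symbol, and all 10 were found among the 54838 Ensembl identifiers of the table. RNA-seq had been collected from PDA530 Met, a mouse pancreatic ductal adenocarcinoma line which was established from a liver metastasis in a KPC animal (a male, strain Mixed 129/SvJae/C57Bl/6), in 3 groups of 3 libraries. Knockout libraries came from clone E4, edited in the palmitoyltransferase gene Zdhhc20 with CRISPR/Cas9. Control libraries came from clone C5, which had been nucleofected with the same guides, was not edited and still expresses the gene. Parental libraries came from the uncloned line, which the design text spells PDA50 Met. All cells were untreated and in normal growth. Since knockout and control are each represented by a single clone, the effect of editing cannot be told apart from differences between clones.

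Contractile genes of this kind are driven by SRF, which binds a short A/T-rich element called the CArG box in their promoters. SRF is switched between programmes by its cofactors: the myocardin-related factors MRTF-A and MRTF-B sense the pool of unpolymerised actin, and myocardin serves smooth and cardiac muscle. In smooth muscle the products form the contractile apparatus, while several relatives build stress fibres in cells of other kinds, and carcinoma cells can gain the smooth muscle set when they take on mesenchymal features.

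Promoter windows were available in RefSeq (GRCm38.p6) for 8 of the members, as 300 bases from 250 before to 50 after an annotated start. Only Cnn2 and Myl9 had a full CArG box in any window, on either strand, against 1.81% of all 27025 genes. A box with 1 of its 6 inner bases a C or G instead of A or T, a form added after the full form had been searched, was present in Acta2 and Myl9 and in 9.69% of all genes. These windows are shown because they hold a full or a changed box, in 1 gene that the cells expressed and in 2 that were at or near 0 counts. Capitals mark the full and the changed boxes. The 3 windows are Cnn2 on chr10:79988350-79988649 (plus strand), Myl9 on chr2:156775214-156775513 (plus strand) and Acta2 on chr19:34255324-34255623 (minus strand), written 5′ to 3′.
Cnn2: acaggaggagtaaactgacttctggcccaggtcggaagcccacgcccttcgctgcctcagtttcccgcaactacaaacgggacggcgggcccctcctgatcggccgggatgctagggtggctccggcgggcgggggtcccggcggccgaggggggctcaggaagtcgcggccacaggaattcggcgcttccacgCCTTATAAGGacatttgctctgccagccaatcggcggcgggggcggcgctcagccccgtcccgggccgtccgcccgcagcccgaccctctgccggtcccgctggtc
Myl9: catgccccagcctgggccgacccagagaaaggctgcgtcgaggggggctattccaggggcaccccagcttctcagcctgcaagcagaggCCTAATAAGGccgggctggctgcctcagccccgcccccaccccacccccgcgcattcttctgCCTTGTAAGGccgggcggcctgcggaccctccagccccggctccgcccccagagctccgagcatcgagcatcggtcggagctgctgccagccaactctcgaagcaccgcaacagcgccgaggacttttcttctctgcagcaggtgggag
Acta2: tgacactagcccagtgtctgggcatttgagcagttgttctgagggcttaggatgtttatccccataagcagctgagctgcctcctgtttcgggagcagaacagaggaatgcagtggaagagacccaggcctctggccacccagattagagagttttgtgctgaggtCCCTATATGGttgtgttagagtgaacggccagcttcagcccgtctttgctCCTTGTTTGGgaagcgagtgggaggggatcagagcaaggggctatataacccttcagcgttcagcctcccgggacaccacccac
The full box began 56 bases before the start in Cnn2 and 161 bases before it in Myl9. The changed boxes began 84 and 34 bases before the start in Acta2 and 99 bases before it in Myl9. A match describes the letters of the window and is not evidence of binding.

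Library totals ranged from 16525869 to 23192701 estimated counts, and no libraries of a group agreed within sampling noise (chi-square per gene of at least 4.9). The targeted gene Zdhhc20 was lower in every knockout library (33.9 to 42.5 CPM, read counts scaled to library size) than in any control library (85.8 to 123 CPM) or parental library (75.3 to 90.7 CPM). Of 10 ductal epithelial markers, Krt8, Krt18 and Cdh1 had group means of at least 768 CPM, while Epcam and Cldn4 were at 2.04 CPM or less in every library. Summed over these markers, the level was 4420 to 4550 CPM in the knockout clone, 7290 to 9750 CPM in the control clone and 6830 to 8310 CPM in parental cells. Of 14 fibroblast and pericyte markers, 7 had no count in any library, among them Dcn, Lum, Col1a2, Col3a1, Postn, Pdpn and Rgs5. Summed, they reached 1.11 to 2.17, 2.02 to 4.2 and 16.3 to 18.5 CPM in the knockout, control and parental libraries. Most of the parental sum was Cspg4, at 13.5 ± 1.46 CPM (SD, n = 3). Of 8 endothelial and leukocyte markers, the summed level was at most 2.97 CPM in any library.

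The 10 members fell into 5 that were near absent and 5 that were well expressed. Acta2, Actg2, Tagln, Cnn1 and Myl9, of which all but Myl9 are used as markers of smooth muscle cells or myofibroblasts, held at most 5 counts in any library, and all 5 were removed by the filter on low counts. Tagln2, Cnn2, Tpm1, Tpm2 and Cald1 held at least 492 counts in every library and were tested. CPM values were scaled by TMM. Levels of different genes are given as TPM, which divides counts by gene length and is scaled within each library without TMM. Group differences in TPM can thus depart from those in CPM, and calls were made on the counts. For Tpm1, knockout and control means were 343 and 340 TPM but 704 and 777 CPM.

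Among the actins, Acta2 (ENSMUSG00000035783, chromosome 19 from 34241090 to 34255590), the smooth muscle alpha actin, held 1, 0 and 2 counts in the knockout libraries, 0, 2 and 1 in the control libraries, and 4, 5 and 2 in the parental libraries. Its 11 parental counts against 3 in each clone gave a ratio of 3.72 to the knockout clone (95% counting interval 0.984 to 20.8) and 3.94 to the control clone (1.04 to 22). In an edgeR fit without the filter neither was called, with adjusted p of 0.363 and 0.371. Intervals and limits of this kind cover counting error only. Actg2 (ENSMUSG00000059430, chromosome 6 from 83512905 to 83536265), the smooth muscle gamma actin of gut and bladder, held 2 counts in knockout replicate 2, 2 in control replicate 2 and 0 elsewhere. Actins are close copies, so single counts can be misassigned between them. By contrast the cytoplasmic actins Actb and Actg1, which all cells use, were at 3680 ± 86.2 and 2980 ± 149 TPM in the knockout clone, 3180 ± 578 and 2340 ± 341 TPM in the control clone, and 3180 ± 127 and 2370 ± 45.5 TPM in parental cells (SD, n = 3).

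Myl9 (ENSMUSG00000067818, chromosome 2 from 156775420 to 156781658), the regulatory light chain of smooth muscle and non-muscle myosin, held no count in any of the 9 libraries. A count of 0 allows a level of up to 0.131 to 0.178 CPM in single libraries (3 counts) and up to 0.0177 CPM over all 9. The related light chains Myl12a and Myl12b were expressed. Myl12b was at 256 ± 2.19 TPM in the knockout clone, 180 ± 49.8 TPM in the control clone and 308 ± 24 TPM in parental cells, and Myl12a was at 558 ± 26.7 TPM in the knockout clone, 393 ± 64 TPM in the control clone and 394 ± 7.52 TPM in parental cells (SD, n = 3). The symbol Myl12b has 2 gene identifiers, and the values given are those of ENSMUSG00000034868. The other identifier overlaps exons of it and of Myl12a on the same strand, so the split of reads is uncertain.

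Tagln (ENSMUSG00000032085, chromosome 9 from 45929619 to 45936058), or SM22-alpha, an actin-bundling protein, held 1 count in each group, 3 in all. Its exons overlap those of Pcsk7 and Gm48529 on the other strand. Cnn1 (ENSMUSG00000001349, chromosome 9 from 22099216 to 22109630), the smooth muscle calponin, held 3, 5 and 2 counts in the knockout libraries, 2, 1 and 4 in the control libraries, and 0, 0 and 2 in the parental libraries. The ratio of the knockout clone to parental cells was 4.92 (95% counting interval 1.05 to 46.2, adjusted p 0.28 in the edgeR fit without the filter). Cnn1 and Acta2 were at or under 0.295 CPM in every library.

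**Figure D1:**
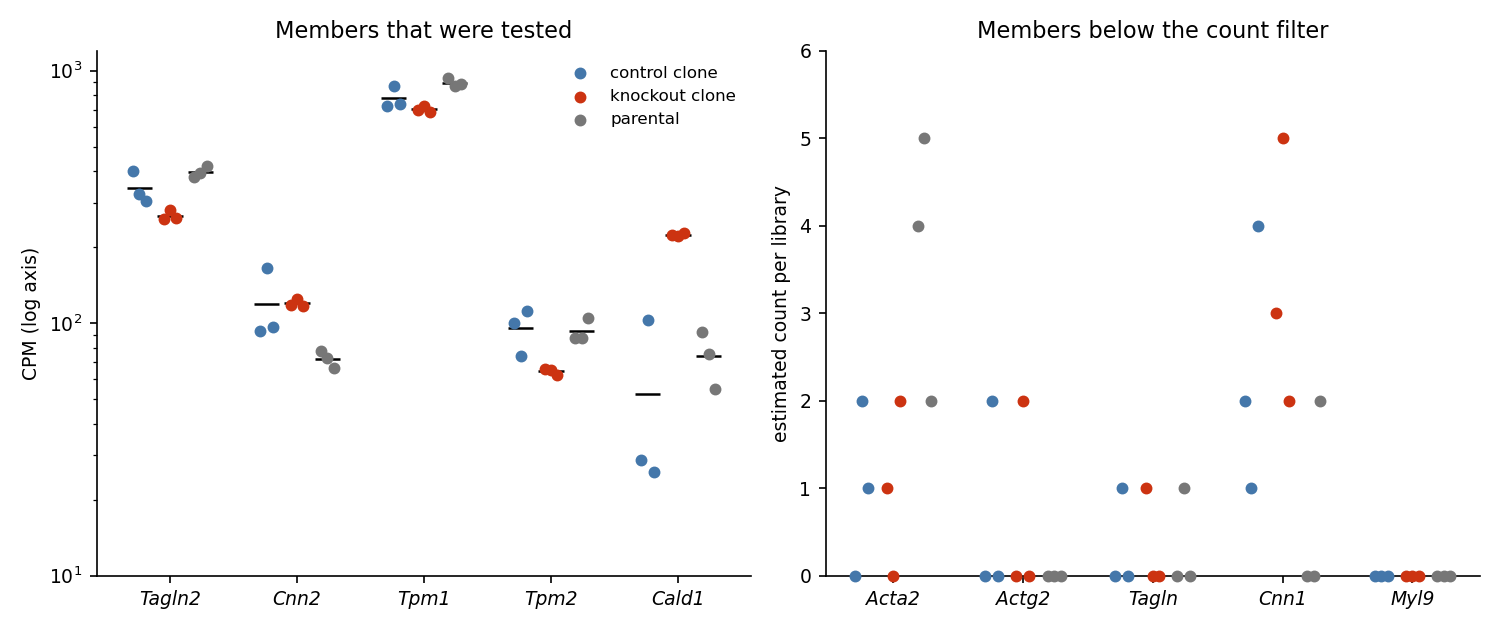
Levels of the 10 members in each library. Left, CPM on a log axis for the 5 tested members, with 1 point per library and a bar at the group mean; right, estimated counts per library for the 5 members under the filter. Cald1 lay at 221 to 228 CPM in the knockout libraries and at 25.8 to 103 CPM in all others, and the members on the right never passed 5 counts.

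The expressed members were ranked per length in each group. Tagln2 and Tpm1 were highest. Tagln2 was at 405 ± 22.9 TPM in the knockout clone, 468 ± 67.1 TPM in the control clone and 602 ± 26.6 TPM in parental cells (SD, n = 3). Tpm1 was at 343 ± 11.6, 340 ± 38.7 and 436 ± 17.6 TPM in the same order. The order of these 2 depends on the gene length used: with the longest annotated transcript in place of all exons, Tpm1 was at 601, 605 and 760 TPM and Tagln2 at 415, 487 and 614 TPM. Cnn2 was at 154 ± 6.82 TPM in the knockout clone and Tpm2 at 70.2 ± 2.53 TPM there, while in the control clone (137 ± 48.5 against 93.1 ± 18.2) and parental cells (92.9 ± 7.93 against 101 ± 9.85) their libraries overlapped. Cald1 was the lowest of the expressed members by exon length, at 58.8 ± 0.57, 12.4 ± 10.5 and 19.5 ± 5.06 TPM, but by the longest transcript it passed Tpm2 in the knockout clone (116 against 73.3 TPM). Together the 10 members took 1000 to 1080 TPM in the knockout libraries, 961 to 1120 TPM in the control libraries and 1250 to 1260 TPM in the parental libraries.

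Changes between groups were tested across 13153 genes by edgeR quasi-likelihood F-tests, and calls were made where the p adjusted by Benjamini-Hochberg was under 0.05. Of the 5 tested members, 3 were called between the knockout clone and the control clone: Cald1 was higher, and Tagln2 and Tpm2 were lower. Among all tested genes 42.9% were called in that comparison, 18.7% higher and 24.2% lower. Between the knockout clone and parental cells all 5 tested members were called, with Cald1 and Cnn2 higher and Tagln2, Tpm1 and Tpm2 lower, against 31.4% of all tested genes (13.1% higher and 18.3% lower). Between the control clone and parental cells only Cnn2 was called, higher, against 21.4% of all tested genes (10.4% higher and 11% lower). Cald1 was thus called higher, and Tagln2 and Tpm2 lower, in knockout cells than in both other groups, as were 8.19% and 13.4% of all tested genes. A further member, lower in the control clone, had an unadjusted p under 0.05 there, and DESeq2 and limma voom each called 1 member higher and 0 lower. The comparisons share libraries, so their values are given side by side. Over the tested members the median log2 fold change was -0.14, -0.35 and -0.20 in the 3 comparisons, and over all tested genes it was -0.02, -0.01 and 0.01.

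Cald1 (ENSMUSG00000029761, chromosome 6 from 34598500 to 34775473) encodes caldesmon, which binds actin, tropomyosin and myosin and restrains their interaction. It measured 223, 221 and 228 CPM across the knockout libraries, 28.8, 103 and 25.8 CPM in the control libraries and 92.1, 75.2 and 54.8 CPM in the parental libraries. All 3 knockout libraries were above all 6 others; for 34.2% of tested genes the knockout libraries lay all above or all below the rest. Control replicate 2 stood above the other control libraries and all parental ones. The knockout clone was 4.28-fold higher than the control clone (log2 2.10, standard error 0.47, adjusted p 0.00591) and 3.02-fold higher than parental cells (log2 1.60, standard error 0.46, adjusted p 0.0263). Of all tested genes, 98.8% had a lower log2 fold change in each of these comparisons. The call against the control clone was made with any 1 library left out. Control replicate 2 lowered this fold, and without it the log2 fold change was 3.04 (standard error 0.19, adjusted p 3.33e-06). The call against parental cells was lost when parental replicate 2 or 3 or any knockout replicate was left out (log2 1.42 to 1.61, adjusted p 0.0602 to 0.0988). It had an adjusted p of 4.17e-05 without control replicate 2 and of 1.1e-05 in a fit of only the groups compared.

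The same library decided how the control clone compared with parental cells for caldesmon. With all libraries the log2 fold change of Cald1 there was -0.50 (standard error 0.46, adjusted p 0.472), and without control replicate 2 it was -1.44 (standard error 0.18, adjusted p 0.000711). In control replicate 2, Cald1 was 1.91 higher on the log2 CPM scale than the mean of control replicates 1 and 3, a gap that 0.549% of 10020 genes averaging 5 CPM or more equalled or passed in either direction. The gap was 0.80 for Cnn2 (7.5% of genes), 0.26 for Tpm1, -0.10 for Tagln2 and -0.51 for Tpm2. The control clone varied most in general: the median SD of log2 CPM over those genes was 0.203 there, 0.075 in the knockout clone and 0.084 in parental cells, and that of Cald1 was 1.108, 0.025 and 0.377. The labels do not say what sets this library apart, and its part in the results was not tested beyond leaving it out.

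The calponin Cnn2 (ENSMUSG00000004665, chromosome 10 from 79988584 to 79996062), the non-muscle form that binds actin filaments, followed another pattern. It measured 118, 125 and 117 CPM across the knockout libraries, 93.3, 166 and 96.7 CPM in the control libraries and 77.3, 73 and 66.5 CPM in the parental libraries. Every library of either clone was above every parental library; 15.2% of tested genes had parental libraries all above or all below the others. Both clones were higher than parental cells, the knockout clone by 1.66-fold (log2 0.73, standard error 0.20, adjusted p 0.0192) and the control clone by 1.64-fold (log2 0.71, standard error 0.20, adjusted p 0.0296). Of all tested genes, 2.14% were called lower in parental cells than in both clones. Against the control clone the knockout clone had a log2 fold change of 0.02 (standard error 0.19, adjusted p 0.95), which became 0.34 (adjusted p 0.00545) without control replicate 2 and was negative, at -0.13 and -0.11, without control replicate 1 or 3. The call of the knockout clone against parental cells was lost without parental replicate 2 or 3 or knockout replicate 2 (adjusted p 0.0541 to 0.07). That of the control clone was lost without any 1 parental library or knockout replicate 3 (adjusted p 0.0504 to 0.0955) and when just the compared groups were fitted (log2 0.72, adjusted p 0.0809), and without control replicate 2 its log2 fold change was 0.39 (adjusted p 0.00637).

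The third calponin, Cnn3, which is expressed widely and acts on actin in many cell types, was higher in knockout cells than in both other groups. It measured 309, 270 and 308 CPM across the knockout libraries, 162, 188 and 179 CPM in the control libraries and 245, 226 and 213 CPM in the parental libraries. The log2 fold changes were 0.75 (standard error 0.09, adjusted p 0.000224) and 0.37 (standard error 0.09, adjusted p 0.0121). Of these calls, that against parental cells was lost without parental replicate 3, knockout replicate 1 or knockout replicate 3 (adjusted p 0.0511 to 0.0539). Per length, Cnn2 made up 33.4 ± 2.54% of calponin transcripts in the knockout clone, 44.6 ± 6.64% in the control clone and 28.1 ± 0.357% in parental cells (SD, n = 3), and Cnn1 at most 0.078% in any library. With the longest transcript as length the shares of Cnn2 were 26.8%, 37.1% and 22.2% in the same order. The 3 groups did not overlap in the share of Cnn2 by either length. Control replicate 2 was highest by exon length, at 52.2% against 41.6% and 39.9% in control replicates 1 and 3. How often such gaps occur in other gene families was not counted.

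Tagln2 (ENSMUSG00000026547, chromosome 1 from 172500047 to 172507380), the transgelin of non-muscle cells, which stabilises actin filaments, was lower in the knockout clone. It measured 258, 282 and 260 CPM across the knockout libraries, 400, 326 and 306 CPM in the control libraries and 378, 393 and 420 CPM in the parental libraries. The knockout libraries were below all others, while 34.2% of tested genes had knockout libraries all above or all below the rest. The knockout clone was 1.29-fold lower than the control clone (log2 -0.37, standard error 0.10, adjusted p 0.0177) and 1.49-fold lower than parental cells (log2 -0.57, standard error 0.10, adjusted p 0.00294). The first call was lost when just the compared groups were fitted (adjusted p 0.0621) and without control replicate 1 or knockout replicate 1 or 3 (log2 -0.34 to -0.24, adjusted p 0.0502 to 0.0806). The second was made with any 1 library left out. Per length, Tagln took at most 0.0198% of the transgelin pair in any library, so Tagln2 made up nearly all of it. The log2 fold change between the control clone and parental cells was -0.21 (standard error 0.10, adjusted p 0.185), which was called without control replicate 1 (-0.33, adjusted p 0.0318).

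Both tropomyosins, coiled-coil proteins that run along actin filaments and gate myosin, were lower in knockout cells than in parental cells. Tpm2 (ENSMUSG00000028464, chromosome 4 from 43514711 to 43523765) measured 65.9, 65.4 and 62.4 CPM across the knockout libraries, 100, 74.3 and 112 CPM in the control libraries and 87.2, 87.1 and 105 CPM in the parental libraries. Its knockout libraries were below all 6 others, beside 34.2% of tested genes with knockout libraries all above or all below the rest. The knockout clone was 1.48-fold lower than the control clone (log2 -0.57, standard error 0.14, adjusted p 0.0106) and 1.44-fold lower than parental cells (log2 -0.53, standard error 0.14, adjusted p 0.0199). The first call was made with any 1 library left out. The second was lost without parental replicate 3 or any knockout replicate (adjusted p 0.0614 to 0.0911). Control and parental cells had a log2 fold change of 0.04 (standard error 0.14, adjusted p 0.881).

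Tpm1 (ENSMUSG00000032366, chromosome 9 from 67022590 to 67049406) measured 699, 725 and 688 CPM across the knockout libraries, 722, 872 and 738 CPM in the control libraries and 935, 867 and 883 CPM in the parental libraries. Knockout and control libraries overlapped, and knockout and parental libraries did not. The share of all tested genes with a gap between knockout and parental libraries was not counted. The knockout clone was 1.27-fold lower than parental cells (log2 -0.35, standard error 0.08, adjusted p 0.0124) and had a log2 fold change of -0.14 against the control clone (standard error 0.08, adjusted p 0.194). Leaving out knockout replicate 3 ended the parental call (adjusted p 0.0535). Between the control clone and parental cells it was -0.20 (standard error 0.08, adjusted p 0.115), called without control replicate 2 (-0.30, adjusted p 0.00971). Tpm1 lies on chromosome 9, where the median over 748 tested genes was a log2 fold change of -0.53 for both knockout comparisons. Of those genes, 68.9% had a lower log2 fold change than Tpm1 against the control clone and 60.7% against parental cells. On the chromosomes of the other 4 tested members the medians were between -0.16 and 0.08 in these comparisons.

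**Figure D2:**
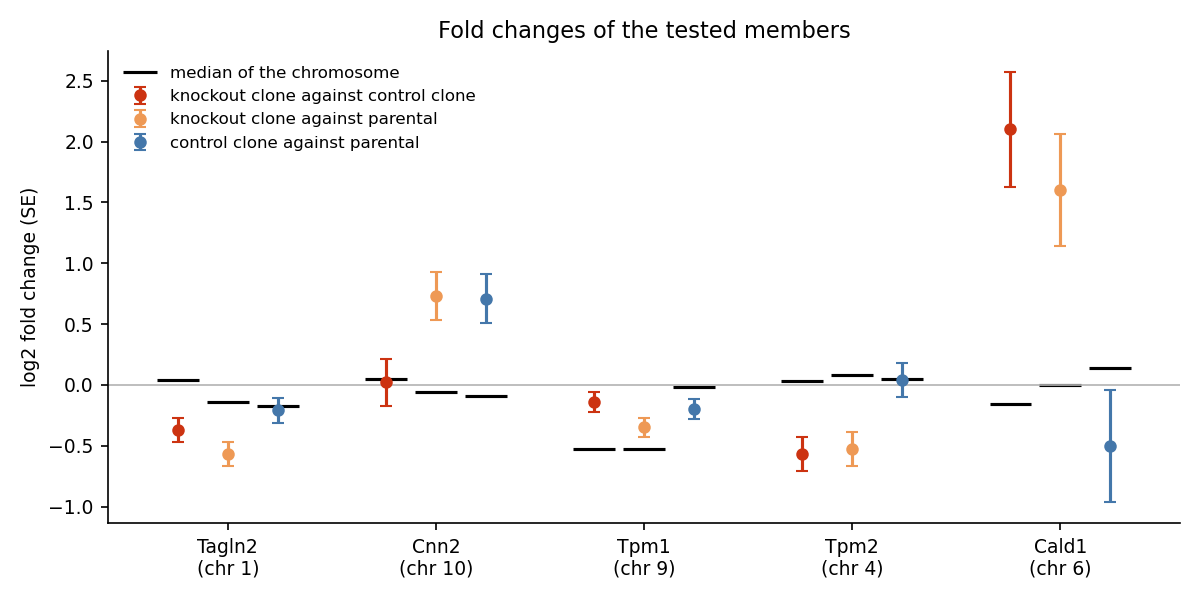
Log2 fold change of the 5 tested members in the 3 comparisons. Points are the fitted values, bars 1 standard error, and black ticks the median of all tested genes on the same chromosome. Cald1 was at 2.10 and 1.60 in the knockout comparisons, and Tpm1 lay above the chromosome 9 median of -0.53 in both.

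The tropomyosin genes were also compared as a family, since all 4 give actin-binding forms in cells outside muscle. Per length, Tpm1 made up 13.8 ± 0.253% of tropomyosin transcripts in the knockout clone, 17.1 ± 1.18% in the control clone and 16.9 ± 0.492% in parental cells (SD, n = 3). Tpm2 made up 2.81 ± 0.0859%, 4.79 ± 1.45% and 3.92 ± 0.385% in the same order, and Tpm4 62.1 ± 0.649%, 56 ± 1.56% and 57.7 ± 0.463%. The knockout libraries were below all others for Tpm1 and Tpm2 and above all others for Tpm4. With the longest transcript as length the shares of Tpm1 were 20.1%, 24.1% and 24%, and those of Tpm4 41.8%, 36.4% and 37.8%, so the sizes depend on the length and the order of the groups for the knockout clone does not. As single genes, Tpm4 was higher in knockout cells than in the control clone (log2 0.31, standard error 0.10, adjusted p 0.0256) and not called against parental cells (0.05, standard error 0.10, adjusted p 0.715), and Tpm3 was called in neither (0.12 and -0.06, adjusted p 0.326 and 0.676). The Tpm4 call was lost when just the compared groups were fitted (adjusted p 0.0538) and without control replicate 1, knockout replicate 2 or knockout replicate 3 (adjusted p 0.0566 to 0.0687). Gene counts do not separate the muscle and non-muscle transcripts of Tpm1, Tpm2 or Cald1.

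**Figure D3:**
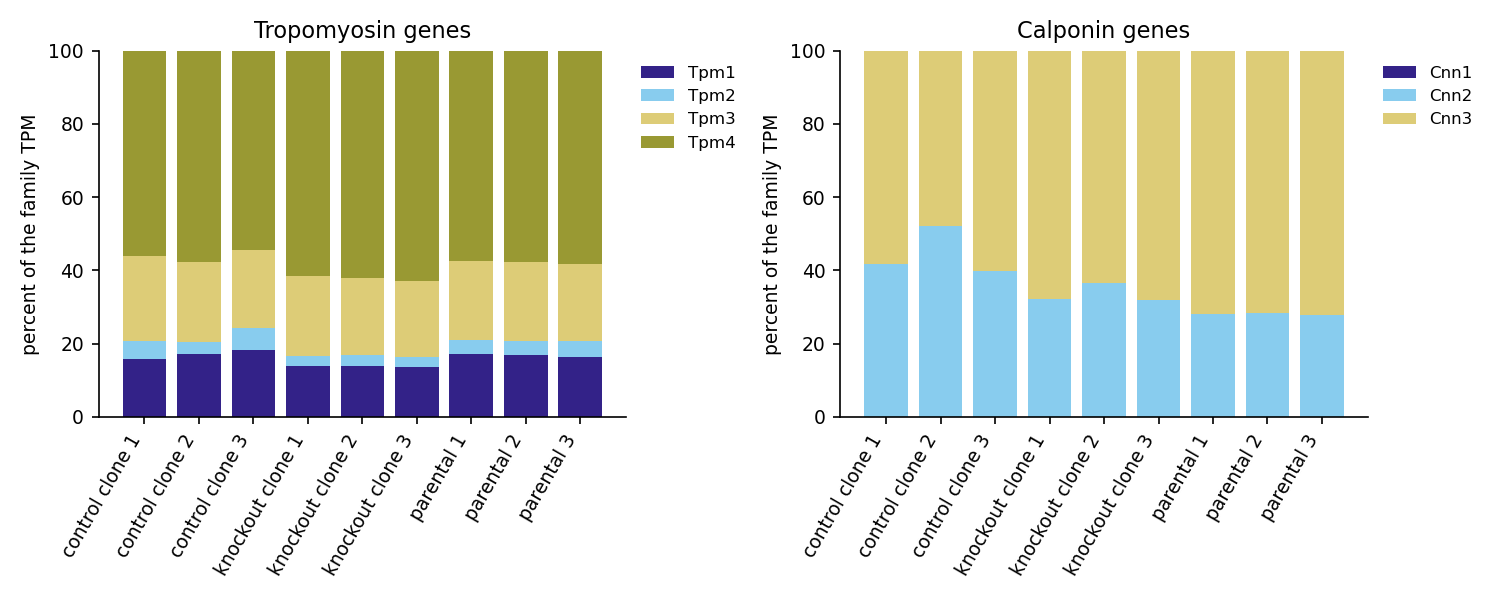
Share of each gene in the summed TPM of the tropomyosin genes (left) and the calponin genes (right), as stacked bars, 1 per library. Tpm1 was 13.5 to 14% of its family in the knockout libraries and 15.9 to 18.2% in the others; Cnn1 is too small to see.

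The genes of SRF and its cofactors were read from the same fit, which measures their RNA and not SRF activity. Of 10 such genes 8 were tested, and 2 were called between the knockout clone and the control clone, both higher, against 42.9% of all tested genes called there. They were Srf itself and Mrtfa, the gene of MRTF-A. Srf measured 62.4, 72.8 and 65.6 CPM across the knockout libraries, 41.2, 53.9 and 40.7 CPM in the control libraries and 41.5, 37.2 and 39.3 CPM in the parental libraries. Its knockout libraries were above all others, beside 34.2% of tested genes with knockout libraries all above or all below the rest. Its log2 fold changes were 0.56 (standard error 0.12, adjusted p 0.0043) and 0.77 (standard error 0.12, adjusted p 0.00134), called with any 1 library left out. Mrtfa had log2 fold changes of 0.43 (standard error 0.14, adjusted p 0.037) and 0.45 (standard error 0.14, adjusted p 0.0402). Leaving out 1 library kept the first call in 5 of 9 fits and the second in 4 of 9, with adjusted p up to 0.121 and 0.137. Mrtfb, the gene of MRTF-B, had -0.13 (adjusted p 0.311) and -0.34 (standard error 0.10, adjusted p 0.0292). The latter call was lost in 6 of the 9 fits that left out 1 library (adjusted p 0.0612 to 0.11). Myocd, the gene of myocardin, held a single count over the 9 libraries together, in knockout replicate 1.

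Of 28 further actin-bundling and contractile genes that are reported SRF targets, 24 were tested, and 8 were called up and 7 down in knockout cells than in the control clone. Of all tested genes 18.7% were called higher and 24.2% lower in that comparison. Against parental cells 8 were called higher and 6 lower, beside 13.1% and 18.3% of all tested genes. The medians of the list were 0.18 and -0.02. Zyx, a focal adhesion and stress fibre protein, measured 83.2, 83.3 and 73.9 CPM across the knockout libraries, 20.7, 36.2 and 34.1 CPM in the control libraries and 36, 33.7 and 30.5 CPM in the parental libraries. It rose by 1.41 (standard error 0.18, adjusted p 0.000321) and 1.26 (standard error 0.18, adjusted p 0.000893) on the log2 scale. Myh10, the heavy chain of non-muscle myosin IIB, measured 102, 100 and 99.1 CPM across the knockout libraries, 7.81, 11 and 7.35 CPM in the control libraries and 32.3, 26.7 and 25 CPM in the parental libraries. Its log2 fold changes were 3.53 (standard error 0.16, adjusted p 1.22e-06) and 1.84 (standard error 0.15, adjusted p 4.37e-05), and it was also lower in control cells than in parental cells (-1.69, adjusted p 0.000187). The 3 groups did not overlap for this motor gene. Of all tested genes, 34.2% had knockout libraries and 22.3% control libraries all above or all below the others. The share with all 3 groups apart was not counted.

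Other genes of the same list fell. Lima1, or EPLIN, which cross-links actin filaments, had log2 fold changes of -1.21 (standard error 0.17, adjusted p 0.000479) and -1.08 (standard error 0.17, adjusted p 0.00134). Tgfb1i1, or Hic-5, a focal adhesion adaptor, fell to 0.163 ± 0.149 CPM in the knockout clone from 3.14 ± 0.603 CPM in control and 3.42 ± 0.273 CPM in parental libraries (SD, n = 3; log2 -4.22 and -4.34, adjusted p 8.45e-05 and 0.00012). Without knockout replicate 2 these were -5.17 and -5.31. In the control clone, the muscle intermediate filament gene Des, which overlaps Gm15179 on the other strand, was at 4.95 ± 2.24 CPM (SD, n = 3) against 0.0706 and 0.303 CPM in the knockout clone and parental cells. It was higher there by log2 4.04 against parental cells (standard error 0.50, adjusted p 0.000859; 4.68 without parental replicate 3), and the knockout clone had -5.99 against the control clone (standard error 0.61, adjusted p 8.66e-05). In all, 4 of the 24 tested genes were called higher in the control clone against both other groups, among them Des, Synpo and Ckb, and 3 were called lower, among them Filip1l and Myh10. The shares over all tested genes were 7.01% and 6.41%. The log2 fold changes of Synpo, Ckb and Filip1l against parental cells were 1.06, 1.36 and -1.73 (adjusted p 0.0219, 0.00411 and 0.000452), and the knockout clone had -1.38, -1.23 and 1.13 against the control clone (adjusted p 0.00313, 0.00259 and 0.00122). The Synpo call against parental cells was lost without any 1 parental library (adjusted p 0.0565 to 0.0895) and when just the compared groups were fitted (adjusted p 0.0621), and its log2 fold change there was 0.69 without control replicate 3.

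Mylk, the kinase that phosphorylates the regulatory light chain, measured 6.84, 7.29 and 7.71 CPM across the knockout libraries, 26.4, 19.9 and 38.7 CPM in the control libraries and 24.8, 21.7 and 20.4 CPM in the parental libraries. Its log2 fold changes were -1.96 (standard error 0.22, adjusted p 0.000147) and -1.62 (standard error 0.22, adjusted p 0.000659), called with any 1 library left out. Its exons overlap those of E130310I04Rik and Gm21691 on the other strand. Among 12 close paralogs of the members, 10 were tested. Against the control clone 4 were called, all higher, and against parental cells 3, all higher, while 18.7% and 13.1% of all tested genes were called higher and 24.2% and 18.3% lower. Of the cytoplasmic actins, Actb had 0.05 and 0.21 (adjusted p 0.746 and 0.205). Its value against parental cells was called without control replicate 1 (adjusted p 0.0404) and when just the compared groups were fitted (adjusted p 0.00744). Actg1 had 0.20 (adjusted p 0.132, called at 0.31 with adjusted p 0.00557 without control replicate 2) and 0.33 (adjusted p 0.029), and the last call was lost without any 1 parental library or knockout replicate 2 or 3 (adjusted p 0.0623 to 0.0859).

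**Figure D4:**
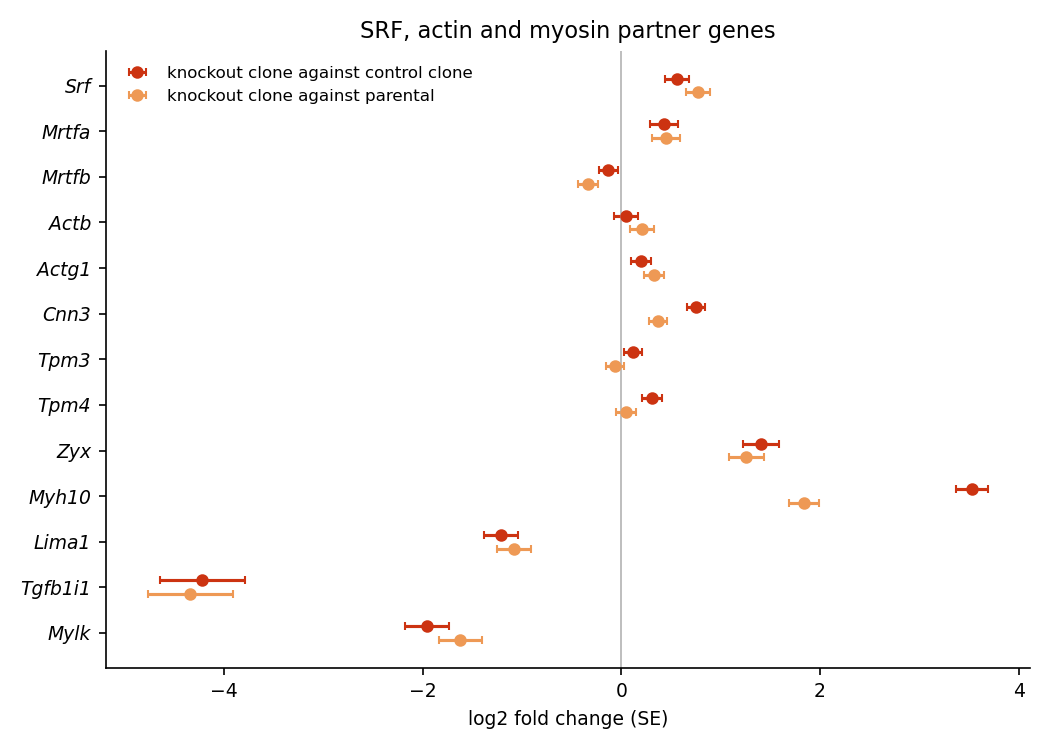
Log2 fold change of genes that work with the members, with the knockout clone set against the control clone and parental cells. Points are fitted values and bars 1 standard error. Myh10 lay at 3.53 and 1.84, Mylk at -1.96 and -1.62, and Srf at 0.56 and 0.77.

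Markers of other kinds moved with the knockout clone as well. Of the 10 ductal epithelial markers, 3 were called higher and 6 lower against the control clone, beside 18.7% and 24.2% of all tested genes. Against parental cells 2 were called higher and 5 lower, beside 13.1% and 18.3%. Krt8, Krt18, Krt19, Cdh1 and Muc1 were lower than in both other groups, and Epcam and Cldn4 were higher. Krt19, a ductal keratin, had log2 fold changes of -3.12 (adjusted p 8.76e-05) and -2.73 (adjusted p 0.000278), and Muc1 and Krt7 were highest in the control clone. Epcam and Cldn4 were at only 0.584 to 2.04 CPM in the knockout libraries. The Epcam call against parental cells was lost with no filter (adjusted p 0.0821), with DESeq2 (adjusted p 0.0644) and without parental replicate 2 or knockout replicate 1 (adjusted p 0.066 and 0.0553). Pdgfra and Cspg4 were lower in knockout cells than in both other groups (Pdgfra by log2 -1.24 and -2.04). The Pdgfra call against the control clone was lost without control replicate 3 (-0.89, adjusted p 0.0709) or knockout replicate 2 or 3 (adjusted p 0.0851 and 0.084) and when just the compared groups were fitted (adjusted p 0.0579). Cspg4 held 2 counts in the knockout clone, at most 0.0584 CPM in a library. It was higher in parental cells than in both clones, as were 3.7% of all tested genes. In bulk RNA, fewer cells of a type and less RNA per cell cannot be told apart, and the part of these markers in the member changes was not tested.

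The widest range of group means among the expressed members was that of Cald1, 2.39 on the log2 CPM scale, followed by Cnn2 at 0.73 and Tagln2 at 0.57. Genes with a like profile were sought among 10015 other genes averaging 5 CPM or more, by the root-mean-square difference of centred log2 CPM over the 9 libraries. The closest were Plk2, a polo-like kinase, at 0.218, Ptgs2, or cyclooxygenase-2, at 0.251, Map3k20, a stress-activated kinase, at 0.318, Fosb, an AP-1 subunit, at 0.334, and Fgf13, a fibroblast growth factor homologue, at 0.336. By the same measure the other expressed members were 1.014 (Cnn2) to 1.431 (Tpm2) from Cald1. Plk2 measured 139, 147 and 142 CPM across the knockout libraries, 22.2, 96.2 and 16.7 CPM in the control libraries and 50.6, 43.7 and 38.7 CPM in the parental libraries, so it shared the high value of control replicate 2. Ptgs2 was at 725, 694 and 645 CPM, 66.7, 239 and 102 CPM, and 222, 181 and 141 CPM in the same order. The measure picks genes by these values, so it gives no test of a link between them.

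**Figure D5:**
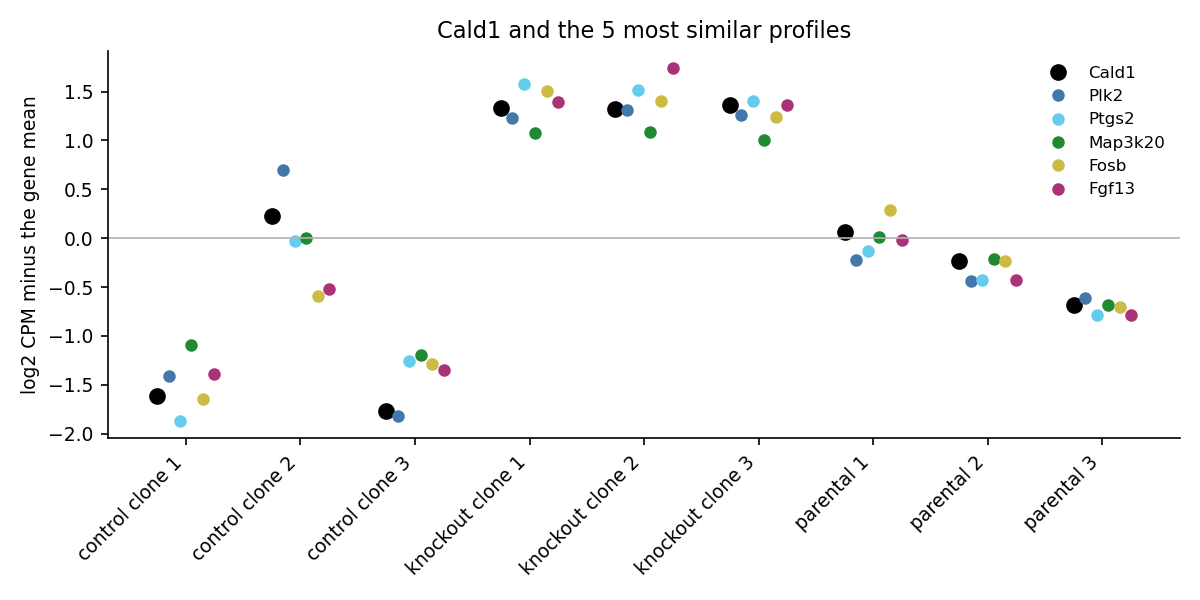
Log2 CPM minus the mean of each gene over the 9 libraries, for Cald1 and the 5 genes closest to it. Each point is 1 library of 1 gene. Cald1 was at 1.319 to 1.367 in the knockout libraries, at -1.614 and -1.771 in control replicates 1 and 3, and at 0.223 in control replicate 2.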

How the data were processed

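Total RNA was made into libraries with the KAPA mRNA HyperPrep kit, per the labels' protocols. The deposited values are RSEM estimated counts per Ensembl gene, as the authors gave them, 1 column per library. Every value was whole, so rounding changed none. Per the submitters' processing notes, STAR 2.5.2, RSEM 1.3.0, DESeq2 1.10.1 and build GRCm38 were used, with no roles given. The annotation release and strand setting are not given in the sources used here, so overlapping, antisense and near-identical genes are uncertain.

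Symbols, positions and lengths came from GENCODE M21 (GRCm38), to which 54809 of the 54838 deposited identifiers were matched. Counts were tested in R 4.3.3 with edgeR 4.0.16 (glmQLFit, glmQLFTest) after filterByExpr (minimum count 10, minimum total 15) and TMM, all 9 libraries in 1 fit, group as the only term. That left 13153 genes, over which p-values were adjusted. Each SE was taken as the size of the log2 fold change over the root of the F statistic. TPM was computed here from union exon lengths. The p-values measure the spread between libraries, which may be technical. The script was tested on simulated data. Alternatives used DESeq2 1.42.0, limma 3.58.1, other scalings and filters, a replicate block, the compared groups alone, and each library left out.

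Earlier results of these data were known when the members, gene lists and naming rule were chosen. The rule named all members, the SRF factors and main paralogs, list genes called the same way in 1 group against both others with a log2 fold change of 1 or more in size each time, and the 5 closest profiles to the most variable member. The rule also named genes of 1 further list, of which Mylk alone is given. The rest, called genes included, is not reported here, so Mylk does not stand for that list or its direction.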

Additional observations from a re-analysis of the deposited data

How the results depend on the processing

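Other scalings, filters and tests changed no call of a member. With the replicate number as a block, the counts of members called were again 1 higher and 2 lower, 2 higher and 3 lower, and 1 higher in the 3 comparisons (knockout clone against control clone, knockout clone against parental cells, control clone against parental cells), and 1189 genes were called higher in the last against 1370. Deviations of same-numbered libraries correlated at -0.134 to 0.212, and those of other-numbered libraries at -0.301 to 0.252. A library was closest to its own number in 8 of 18 cases. These values do not settle whether the numbers mark pairs of libraries. A fit of only the groups compared called 1 member lower in the first comparison, 3316 genes higher in the second, and in the third 753 genes higher, 772 lower and 0 members higher (Cnn2 was lost). An added absolute log2 fold change of 1 left 484 genes higher and 1359 lower, 318 and 1074, and 403 and 448; of members it left 1 higher (Cald1) in each of the first and second comparisons, with 0 lower in the first and second and 0 higher in the third, by edgeR. With 1 library left out, members called ranged from 1 to 2 higher and 1 to 2 lower in the first, 0 to 2 higher and 1 to 3 lower in the second, and 0 to 1 higher and 0 to 2 lower in the third. All genes called ranged from 875 to 2605 higher in the second, and from 644 to 1982 higher and 828 to 2120 lower in the third. Signs turned for 3 values that were near 0 and not called with all libraries. With 1 library left out, the log2 fold change ranged from -0.13 to 0.34 for Cnn2 (called at 0.34, without control replicate 2) and from -0.09 to 0.16 for Actb in the first comparison, and from -0.09 to 0.18 for Tpm2 in the third, which was -0.01 with total counts. The cause of these shifts was not tested. With at most 5 counts a library, 5 members gave only wide counting intervals or none.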
